A study of Mus musculus with 6 samples.

Results

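The genes of the voltage-gated sodium and calcium channels were examined in the aorta of WT and Npr1+/- mice. Members were chosen by symbol alone. They are the sodium channel genes named Scn with a number and a or b, and the calcium channel genes whose symbol starts with Cacna1, Cacna2d, Cacnb or Cacng. The epithelial sodium channels (Scnn1) are not members. Of 18191 genes in the deposited table, 36 are described. Whole aortas of male mice were sequenced in 3 WT libraries and 3 libraries of mice heterozygous for a knockout of NPR1, made by CRISPR-Cas9. NPR1 is the receptor of atrial and brain natriuretic peptides and makes cyclic GMP. No Cre driver or restriction to a cell type is named for the knockout. The ages of the mice and the edited exon are not given in the sources used here. The question was which genes of the aorta differ when 1 copy of Npr1 is disrupted.

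Voltage-gated channels open when the membrane depolarizes. A sodium channel has a pore-forming alpha subunit and auxiliary beta subunits, and carries the upstroke of the action potential in nerve and striated muscle. A calcium channel has a pore-forming alpha1 subunit, an alpha2delta subunit on the outer face and a beta subunit on the inner face, and in some tissues a gamma subunit. In arterial smooth muscle, calcium entry through the L-type channel, whose pore is the product of Cacna1c, drives contraction and is the target of dihydropyridine drugs.

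The 36 genes comprised 10 alpha1, 4 alpha2delta, 4 beta and 7 gamma genes of calcium channels, and 8 alpha and 3 beta genes of sodium channels. Levels between genes are given as FPKM, the fragment count scaled by transcript length and library size, as the authors deposited it. Levels of 1 gene between libraries are also given as CPM, the count scaled by library size alone. In total 20 of the 36 genes had enough counts to be tested (6 alpha1, 3 alpha2delta, 4 beta, 1 gamma, 4 sodium alpha and 2 sodium beta genes), and 16 did not. The test was edgeR's quasi-likelihood test over all 13938 tested genes with Benjamini-Hochberg adjustment, and the call required an adjusted p under 0.05 with a log2 fold change of 0.5 or more in either direction. Nothing in the labels says that the 3 libraries of a genotype came from separate mice, so p-values measure the spread between these libraries. The labels also do not match WT to Npr1+/- libraries. A pair below is the WT and the Npr1+/- library of the same number, and the replicate block uses the same numbers. Only the libraries numbered 1 stood apart as a pair, so pairs 2 and 3 are not known to be matched.

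The library totals lay between 13510970 and 16664343 estimated counts, at which 3 counts equal 0.18 to 0.222 CPM before scaling. Npr1 itself was read at 112.43, 153.33 and 151.51 FPKM in the WT libraries and 70.35, 109.92 and 132.95 FPKM in the Npr1+/- libraries, in the order of their numbers, as throughout. It was lower in the Npr1+/- library of each number, but Npr1+/- 3 lay above WT 1. Its log2 fold change was -0.41 (SE 0.27, edgeR adjusted p = 0.999), and -0.21 (SE 0.22) without Npr1+/- 1. With all 6 libraries, an exact two-sided permutation test gave p = 0.2, where 0.1 is the smallest possible. Whether the measured reads lie in the disrupted stretch is not known, so this is a weak check of the genotype. Smooth muscle markers were present at a high level, with Acta2 (smooth muscle actin) between 2202.48 and 7112.53 FPKM. The library Npr1+/- 1 stood apart: 17 of 17 neuron markers were highest there, and their summed level was 828.3 CPM against 83.7 to 103.9 CPM in the other 5 libraries. Of these sums, the marker Uchl1 alone made up 115.2 CPM in Npr1+/- 1 and 70.68 to 91.23 CPM in the other 5. Smooth muscle markers were lower in both libraries numbered 1, at a summed level of 20800 CPM in WT 1 and 12760 CPM in Npr1+/- 1 against 33370 to 37970 CPM in the other 4. Fold changes are therefore given with and without Npr1+/- 1. In whole tissue, fewer cells of a type and less RNA per cell cannot be told apart.

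None of the 20 tested channel genes was called by edgeR, and 0.0% of all tested genes were called (0 of 13938). Adjusted p was 0.999 for every channel gene. At an unadjusted p under 0.05 there was 1 channel gene, Scn3a, higher in Npr1+/-, beside 2.96% of all tested genes. DESeq2 called 0 of the 36 channel genes and 15 of 18113 genes, or 0.0828%, and 3 channel genes had an unadjusted p under 0.05 beside 3.23% of all genes. Of these, Scn3a and Scn3b were higher, beside 2.3% of all genes, and Cacna2d3 was lower, beside 0.928%. With the replicate number as a block, edgeR again called 0 of the 20 genes and 0.0% of all genes, but 8 channel genes had an unadjusted p under 0.05 beside 12.4% of all tested genes. Without Npr1+/- 1 there were 0 called and 0 with an unadjusted p under 0.05, beside 2.48% of all tested genes (1.44% higher and 1.04% lower). Over the 20 genes the log2 fold changes had a median of -0.13, against 0.01 over every gene tested. In the 20 genes, 8 fold changes were above 0, and in all tested genes 51.6% were. The median of the channel genes was -0.05 without Npr1+/- 1.

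Of the summed FPKM of the alpha1 genes, Cacna1c made up 54.6% ± 9.99 in WT libraries and 50.2% ± 12.8 in Npr1+/- libraries (mean ± SD, n = 3 each, also below). Cacna2d1 made up 88.8% ± 2.42 and 88.6% ± 5.68 of the alpha2delta genes. Among the beta genes, Cacnb3 made up 52.3% ± 2.86 and 51.4% ± 1.56. The gamma genes were almost entirely Cacng7, at 97.4% ± 1.85 and 97.0% ± 1.85. Scn7a made up 71.0% ± 12.3 and 78.5% ± 5.72 of the 8 sodium channel alpha genes. For Cacna1c, Cacna2d1, Cacnb3, Cacng7 and Scn7a the shares in the 2 genotypes differed by less than the larger SD. Summed FPKM was 16.6 ± 2.96 in WT and 13.4 ± 2.68 in Npr1+/- for the alpha1 genes, and 8.08 ± 1.96 and 9.86 ± 3.54 for the 8 sodium channel alpha genes.

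**Figure D1:**
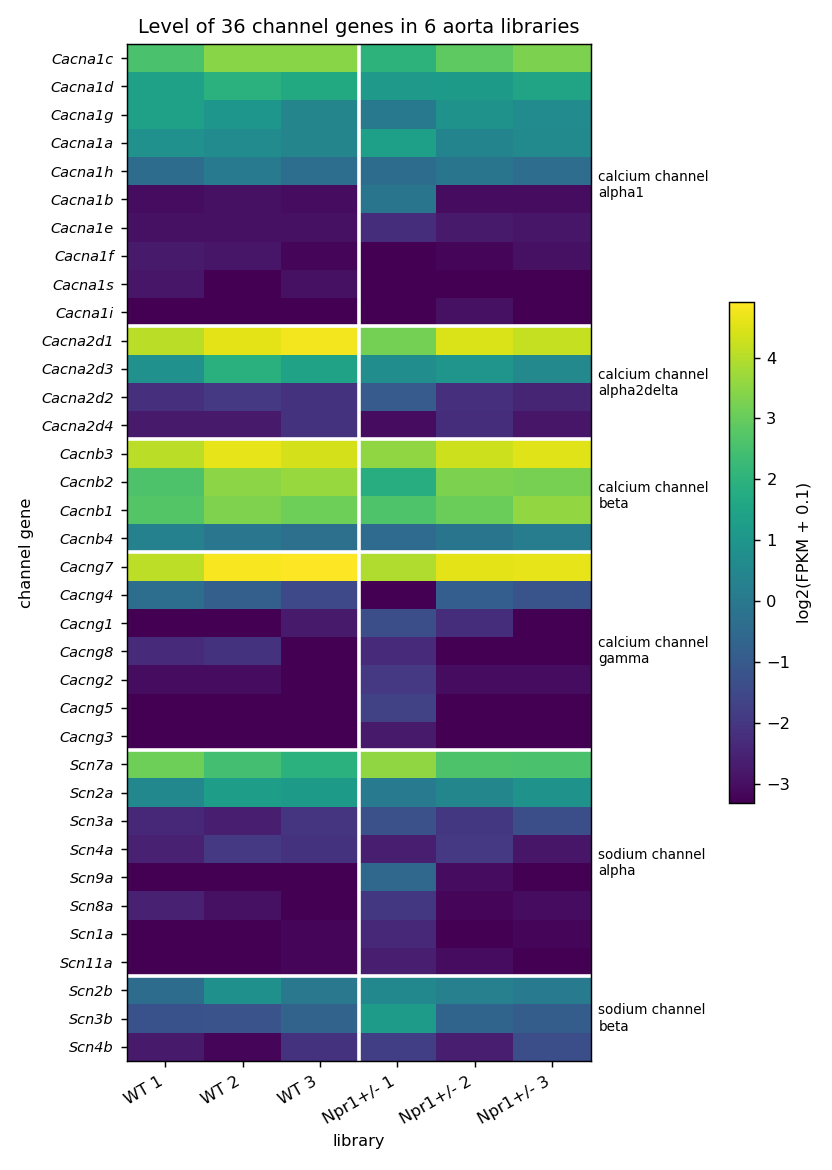
Level of each of the 36 channel genes (rows, grouped by family and ordered by mean level) in the 6 libraries (columns), as log2(FPKM + 0.1). Cacng7, Cacna2d1 and Cacnb3 are the brightest rows in every library but Npr1+/- 1, where Scn7a lies above Cacna2d1 and Cacnb3, and Cacna1b, Cacng5 and Scn9a are near the bottom of the scale except in Npr1+/- 1.

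The stretch before the start of 4 genes is shown, because these genes carry patterns described below: Scn2a, lower in each Npr1+/- library than in the WT library of its number, Scn7a, higher in each, and Cacna1b and Cacng5, read almost entirely in 1 library. RefSeq windows (GRCm38.p6) of 300 bases were matched for 28 of the 36 genes, with 39 windows in all. The printed bases run from 250 to 51 before the start that the window is set to, 5′ to 3′ on the strand of the gene. For Cacna1b and Scn2a that start lies inside the RefSeq gene, whose first base is at 24763200 and 65620764. Their printed bases therefore lie closer to the RefSeq gene than these distances. All printed bases lie outside the RefSeq span of the gene and overlap no exon of GENCODE. Their positions are chr2:65620519-65620718 (plus strand, 1 of 2 windows of the gene) for Scn2a, chr2:66784961-66785160 (minus strand) for Scn7a, chr2:24763203-24763402 (minus strand) for Cacna1b and chr11:107915106-107915305 (minus strand, 1 of 2 windows) for Cacng5. Capitals mark each CG.
Scn2a: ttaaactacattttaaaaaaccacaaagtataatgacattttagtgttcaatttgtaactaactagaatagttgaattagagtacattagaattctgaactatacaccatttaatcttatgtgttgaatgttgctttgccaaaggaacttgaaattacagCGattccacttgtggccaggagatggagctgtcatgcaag
Scn7a: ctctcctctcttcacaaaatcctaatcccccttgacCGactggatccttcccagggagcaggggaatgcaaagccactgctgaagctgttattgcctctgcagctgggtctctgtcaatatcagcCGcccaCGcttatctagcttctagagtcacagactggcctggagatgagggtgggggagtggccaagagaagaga
Cacna1b: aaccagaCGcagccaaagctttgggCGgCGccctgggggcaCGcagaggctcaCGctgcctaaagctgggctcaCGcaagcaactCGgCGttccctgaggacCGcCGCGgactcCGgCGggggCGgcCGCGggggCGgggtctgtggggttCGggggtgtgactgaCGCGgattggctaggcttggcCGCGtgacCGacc
Cacng5: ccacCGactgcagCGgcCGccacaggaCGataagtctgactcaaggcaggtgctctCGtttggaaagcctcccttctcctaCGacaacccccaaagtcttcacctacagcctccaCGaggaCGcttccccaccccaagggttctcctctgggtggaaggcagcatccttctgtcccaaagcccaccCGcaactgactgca
In the printed 200 bases there are 23 CG in Cacna1b, 9 in Cacng5, 3 in Scn7a and 1 in Scn2a. In the whole window the count is 35 in Cacna1b, and 6.95% of all 32851 windows hold as many. It is 17 in Cacng5 (31.4% of windows hold as many) and 3 in both Scn7a and Scn2a (76.7%). The other window of Cacng5 holds 5 CG and that of Scn2a holds 9. The median was 9 CG over the windows of the channel genes and 7 over all windows. The CArG box, the motif bound by serum response factor, was searched on both strands and found in 0 of the 39 windows and 1.63% of all windows. The TATA box was searched as TATAAA on both strands and found in 2 of the 39 and 13.6% of all windows.

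Among the alpha1 genes, the L-type gene Cacna1c had the highest level. It was read at 5.81, 10.89 and 10.94 FPKM in WT and 3.87, 7.20 and 9.76 FPKM in Npr1+/- libraries. In each genotype the library numbered 1 was lowest, and the groups overlapped. The log2 fold change was -0.41 (SE 0.38, edgeR unadjusted p = 0.312), and it was -0.14 (SE 0.32) without Npr1+/- 1. Set against the WT library of the same number, normalized CPM in Npr1+/- was 70.4%, 67.7% and 84.5%. With the replicate block the log2 fold change was -0.44 (SE 0.12, edgeR unadjusted p = 0.0069, adjusted p = 0.213), the smallest adjusted p of the 20 channel genes in that fit.

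The second L-type gene, Cacna1d, is known for pacemaking in the sinoatrial node and opens at more negative voltages. Its FPKM was 2.5, 3.76 and 3.10 in WT and 2.04, 2.17 and 2.71 in Npr1+/- libraries. Only Npr1+/- 3 lay above the lowest WT library. With all 6 libraries, its log2 fold change was -0.43 (SE 0.19, edgeR unadjusted p = 0.0547), against -0.37 (SE 0.21) without Npr1+/- 1 and -0.42 (SE 0.15) with the block (edgeR unadjusted p = 0.0215). By pair, normalized CPM was 85.1%, 59.2% and 82.8% of WT.

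The T-type channels, which open near the resting voltage, were represented by Cacna1g and Cacna1h. FPKM of Cacna1g was 2.51, 1.93 and 1.24 in WT and 0.90, 1.74 and 1.49 in Npr1+/- libraries. Pair 1 stood at 39.2% of WT and pair 3 at 115.4%, so the pairs disagreed in direction. Over all libraries the log2 fold change was -0.42 (SE 0.32), -0.22 (SE 0.30) without Npr1+/- 1 and 0.03 (SE 0.23) without both libraries numbered 1. Cacna1h lay between 0.65 and 0.96 FPKM in all 6 libraries with a log2 fold change of -0.09 (SE 0.23), and -0.05 (SE 0.26) without Npr1+/- 1. Cacna1i, the third T-type gene, had 4 counts in Npr1+/- 2 and 0 in the other 5 libraries.

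Cacna1a, the pore of the P/Q-type channel of nerve endings, was read at 1.70, 1.46 and 1.26 FPKM in WT and 2.39, 1.23 and 1.44 FPKM in Npr1+/- libraries. Npr1+/- 1 was the highest of the 6, and the log2 fold change of 0.21 (SE 0.28) became -0.14 (SE 0.19) without it. Cacna1e, the pore of the R-type channel, had 0.03 FPKM in each WT library and 0.11, 0.05 and 0.04 FPKM in Npr1+/- 1 to 3. The groups did not overlap, and Npr1+/- 3 lay just above WT. It had a log2 fold change of 0.82 (SE 0.42, edgeR unadjusted p = 0.097), and 0.39 (SE 0.39) without Npr1+/- 1. Cacna1s of skeletal muscle had 0 to 2 counts in a library and Cacna1f of the retina had 0 to 3.

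Of the alpha2delta genes, Cacna2d1, the binding site of gabapentin, was second in mean FPKM in WT among the calcium channel genes described, between Cacng7 and Cacnb3, from which it differed by less than the spread between libraries. Its FPKM was 16.56, 23.82 and 27.07 in WT and 9.03, 21.75 and 18.30 in Npr1+/- libraries. Each Npr1+/- library was below the WT library of its number, and the groups overlapped. Its log2 fold change was -0.31 (SE 0.32, edgeR unadjusted p = 0.366), -0.04 (SE 0.23) without Npr1+/- 1 and -0.35 (SE 0.14) with the block (edgeR unadjusted p = 0.036).

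Cacna2d3, another alpha2delta subunit, had the lowest fold change of the 20 tested genes. Its FPKM was 1.69, 3.67 and 2.61 in WT and 1.53, 1.85 and 1.37 in Npr1+/- libraries. Npr1+/- 2 lay above WT 1, and the other 2 Npr1+/- libraries lay below every WT library. This gave a log2 fold change of -0.71 (SE 0.31, edgeR unadjusted p = 0.058), or 61.3% of the WT level, and it was -0.70 (SE 0.36) without Npr1+/- 1. By pair, normalized CPM was 90.1%, 53.5% and 52.3% of WT. Cacna2d3 and Cacna1d are neighbours on chromosome 14, with 317166 bases between them. Cacna2d2 was at 0.42 FPKM in Npr1+/- 1 and at 0.08 to 0.16 FPKM in the other 5 libraries, so that its log2 fold change of 0.63 (SE 0.67) became -0.40 (SE 0.46) without that library. Cacna2d4 had 2 to 13 counts in a library.

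The beta subunits bring the alpha1 subunit to the membrane. Cacnb3 was read at 16.63, 24.30 and 20.93 FPKM in WT and 11.61, 19.25 and 22.64 FPKM in Npr1+/- libraries. Cacnb2, the main beta subunit of the heart, was at 6.10, 11.02 and 12.32 FPKM in WT and 3.45, 9.62 and 9.29 FPKM in Npr1+/- libraries. Cacnb1, which pairs with the skeletal muscle channel, was at 6.44, 9.88 and 8.55 FPKM in WT and 6.11, 8.32 and 11.92 FPKM in Npr1+/- libraries. In all 3 genes both libraries numbered 1 were below the other 4. Cacnb3 had a log2 fold change of -0.18 (SE 0.25), and 0.03 (SE 0.19) without Npr1+/- 1. Cacnb1 had one of 0.14 (SE 0.26), and 0.31 (SE 0.25) without that library. That of Cacnb2 was -0.41 (SE 0.42) with all libraries and -0.07 (SE 0.30) without Npr1+/- 1. Cacnb2 was lower in each pair, at 56.2%, 92.0% and 70.7% of WT, and with the block its log2 fold change was -0.47 (SE 0.15, edgeR unadjusted p = 0.0157, adjusted p = 0.277). Cacnb4 lay between 0.64 and 1.13 FPKM, with a log2 fold change of -0.10 (SE 0.26), and 0.04 (SE 0.25) without Npr1+/- 1.

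Most gamma genes are known as partners of AMPA receptors in the brain, and Cacng1 as a part of the skeletal muscle channel. Of the 7 gamma genes described, Cacng7 was the only one with enough counts to be tested. Its FPKM was 16.83, 28.42 and 30.13 in WT and 15.28, 23.64 and 24.13 in Npr1+/- libraries. The 2 libraries numbered 1 were the lowest, and each pair was lower in Npr1+/-, at 86.3%, 95.6% and 85.6% of WT. It had a log2 fold change of -0.16 (SE 0.24), and 0.02 (SE 0.21) without Npr1+/- 1. With the block it was -0.17 (SE 0.10, edgeR unadjusted p = 0.1525). Cacng8, its neighbour on chromosome 7 at a distance of 25821 bases, had 0 to 3 counts in a library. Cacng4 had 4 to 9 counts in 5 libraries and 0 in Npr1+/- 1.

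**Figure D2:**
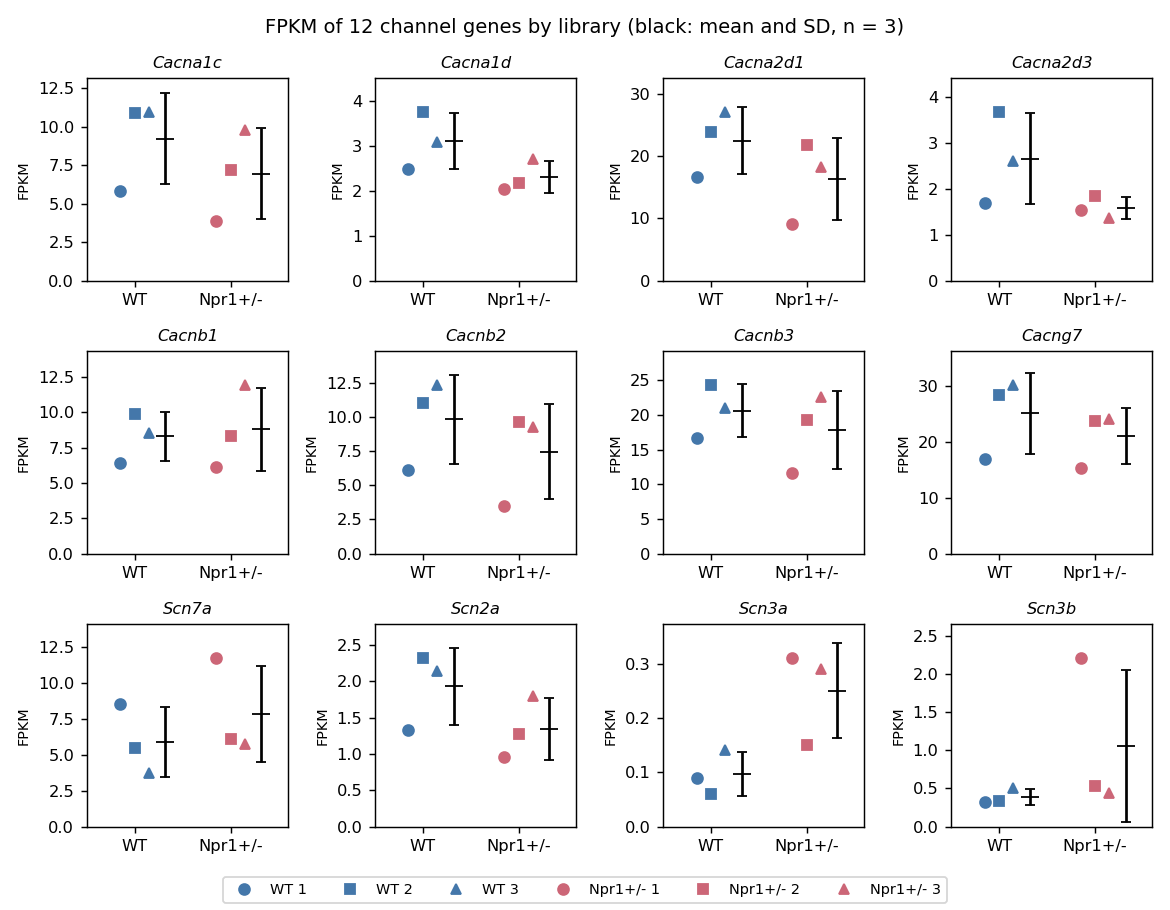
FPKM (vertical axes, from 0) of 12 channel genes in the 3 WT (blue) and 3 Npr1+/- (red) libraries, with the replicate number as the symbol and the mean and SD (n = 3) in black. The circles of replicate 1 are lowest in both genotypes for Cacna1c, Cacna1d, Cacna2d1, Cacnb1, Cacnb2, Cacnb3, Cacng7 and Scn2a and highest for Scn7a, and of the 12 genes only Scn3a shows no overlap between genotypes.

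Scn7a, which codes for a channel that responds to the sodium concentration rather than to voltage and is known from glia and other non-neuronal cells, had the highest level of the 8 sodium channel alpha genes described. Its FPKM was 8.51, 5.44 and 3.72 in WT and 11.74, 6.07 and 5.76 in Npr1+/- libraries. In each genotype the library numbered 1 was highest, and each Npr1+/- library was above the WT library of its number, at 144.1%, 115.2% and 146.9%. The groups overlapped. The log2 fold change was 0.44 (SE 0.39, edgeR unadjusted p = 0.297) and 0.01 (SE 0.32) without Npr1+/- 1. With the block it was 0.43 (SE 0.12, edgeR unadjusted p = 0.00774, adjusted p = 0.217). Schwann cell markers had a summed level of 62.7, 54.6 and 47.0 CPM in WT and 262.8, 56.3 and 76.7 CPM in Npr1+/- libraries, with 7 of 8 markers highest in Npr1+/- 1. Their part in the level of Scn7a was not tested.

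Scn2a, a sodium channel of central neurons, came second among these 8 in mean FPKM. Its FPKM was 1.33, 2.32 and 2.14 in WT and 0.96, 1.28 and 1.80 in Npr1+/- libraries. Each pair was lower in Npr1+/-, at 72.1%, 59.3% and 81.1% of WT, and the groups overlapped. The log2 fold change was -0.50 (SE 0.29, edgeR unadjusted p = 0.131), -0.31 (SE 0.28) without Npr1+/- 1 and -0.51 (SE 0.16) with the block (edgeR unadjusted p = 0.0138, adjusted p = 0.265). Scn2a was lowest in Npr1+/- 1, where the neuron markers were highest. The part of nerve cells in its level was not tested.

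Scn3a, a sodium channel of the developing brain, was higher in every Npr1+/- library than in any WT library, at levels below 0.4 FPKM. It had 0.09, 0.06 and 0.14 FPKM in WT and 0.31, 0.15 and 0.29 FPKM in Npr1+/- libraries. Npr1+/- 2 lay just above WT 3, at 1.202 against 1.174 normalized CPM. Their estimated counts before scaling were 19.04 and 19.13, so the separation rests on a near tie. Scn3a had a log2 fold change of 1.32 (SE 0.47, edgeR unadjusted p = 0.0275, adjusted p = 0.999), and 1.117 (SE 0.52) without Npr1+/- 1, with an edgeR unadjusted p = 0.0752.

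Scn4a, the sodium channel of skeletal muscle, lay between 0.04 and 0.16 FPKM with a log2 fold change of -0.46 (SE 0.62), and -0.28 (SE 0.70) without Npr1+/- 1. Skeletal muscle markers were summed at 6.78 to 9.75 CPM in WT and 9.93 to 10.5 CPM in Npr1+/- libraries. The log2 fold change was above 0 for 4 of 5 tested markers and below 0 for Ckm. Acta1 was at 0.6795 to 1.234 CPM in WT and 2.098 to 4.846 CPM in Npr1+/- libraries. Ckm was at 2.553 to 5.374 CPM in WT and 1.924 to 2.531 CPM in Npr1+/- libraries.

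In all, groups did not overlap and were higher in Npr1+/- for 2 of the 20 tested genes (Cacna1e and Scn3a), beside 3.9% of all tested genes, and lower for 0, beside 3.58%. All 3 pairs were lower in Npr1+/- for 8 of the 20 genes (Cacna1c, Cacna1d, Cacna2d1, Cacna2d3, Cacnb2, Cacng7, Scn2a and Scn4a), beside 16.9% of all tested genes, and higher for 3 (Cacna1e, Scn3a and Scn7a), beside 17.5%. These pairs share only a replicate number, and the labels do not match them. With the block, the 8 genes with an unadjusted p under 0.05 were 2 higher in Npr1+/- (Scn3a and Scn7a), beside 7.36% of all tested genes, and 6 lower (Cacna1c, Cacna1d, Cacna2d1, Cacna2d3, Cacnb2 and Scn2a), beside 5.09%. Without both libraries numbered 1, 5 of the 20 tested genes had an edgeR unadjusted p under 0.05 and were lower, beside 5.09% of all tested genes. They were the 6 lower genes above except Cacna2d1. Higher with such a p were 0 of the 20, beside 6.41% of all tested genes (11.5% in either direction). The libraries of this fit are also in the block fit that picked these genes, so it is no separate check of them. None of these genes was called in either fit, and in the fit without both libraries 0.00717% of all tested genes were.

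**Figure D3:**
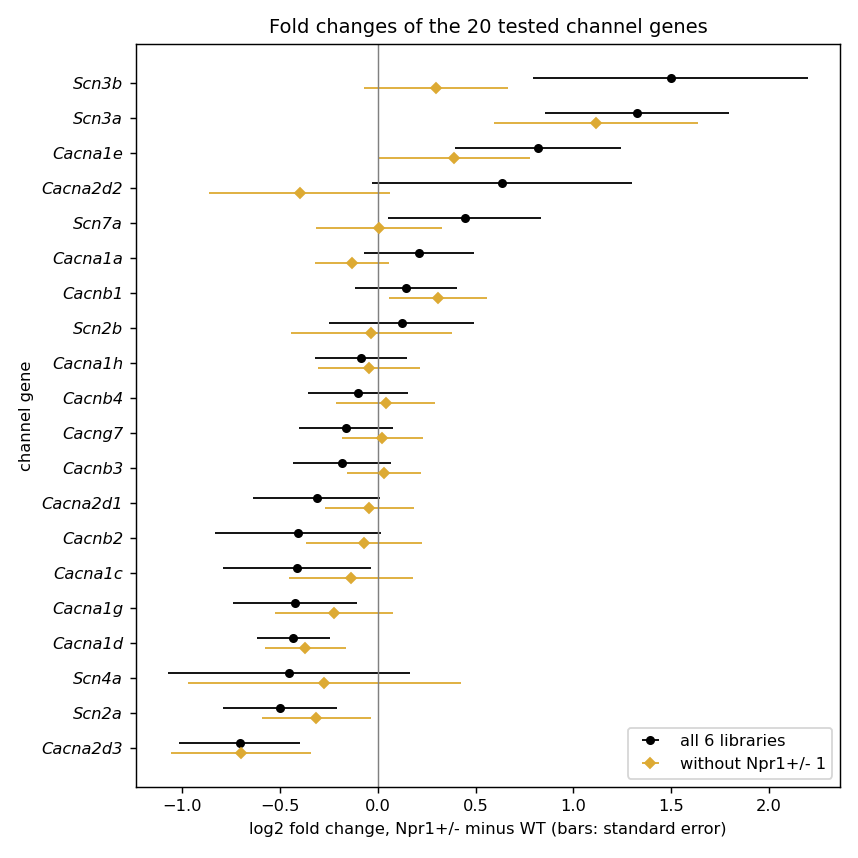
Log2 fold change (horizontal axis, Npr1+/- minus WT, with its standard error as the bar) of the 20 tested channel genes, with all 6 libraries (black) and without Npr1+/- 1 (yellow). Scn3b moves from 1.5 to 0.30 and Cacna2d2 from 0.63 to -0.40, while Cacna2d3 stays near -0.70.

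Of the sodium channel beta genes, Scn2b was at 0.66, 1.65 and 0.89 FPKM in WT and 1.33, 1.09 and 0.98 FPKM in Npr1+/- libraries, all within the WT range, with a log2 fold change of 0.12 (SE 0.37), and -0.03 (SE 0.41) without Npr1+/- 1. Scn3b, a beta subunit found in neurons, was at 0.32, 0.33 and 0.51 FPKM in WT and 2.21, 0.53 and 0.44 FPKM in Npr1+/- libraries. Npr1+/- 1 alone held 52.7% of its CPM over the 6 libraries. Its log2 fold change was 1.5 (SE 0.70, edgeR unadjusted p = 0.0729), and 0.30 (SE 0.37) without that library. Scn4b, which lies 8554 bases from Scn2b on chromosome 9, had 1 to 19 counts in a library.

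In 10 of the 36 genes, over 50% of the CPM of all 6 libraries was in Npr1+/- 1. Only Scn3b was among the 20 tested genes, beside 0.818% of all tested genes. The other 9 were among the 16 genes with too few counts, beside 19.9% of all genes with counts that were not tested. They were Cacna1b, Cacng1, Cacng2, Cacng3, Cacng5, Scn1a, Scn8a, Scn9a and Scn11a. Their ratios compare libraries and not genotypes, and the intervals cover counting error only.

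Scn9a, the sodium channel of peripheral sensory and sympathetic neurons, had 74 counts in Npr1+/- 1, 3 in Npr1+/- 2 and 0 in the other 4 libraries. Its CPM in Npr1+/- 1 was 136.5 times that of the other 5 pooled (95% exact interval 44.9 to 676.9). Cacna1b, the pore of the N-type channel of nerve endings, had 92 counts in Npr1+/- 1 and 2 to 4 in each other library, a ratio of 39.2 (21.8 to 76.3). Both genes were thus read almost entirely in 1 library. Scn1a had 11 counts there and 3 in the other 5 together, a ratio of 20.3 (5.36 to 113.3). Scn8a had 24 counts there and 12 in the other 5, a ratio of 11.1 (5.32 to 24.3). Both are sodium channels of neurons. Cacng5 had 12 counts in Npr1+/- 1 and 0 elsewhere, at least 22.1-fold higher than 3 counts over the other 5 libraries. Cacng2, Cacng1 and Scn11a had 10, 5 and 5 counts there, and Cacng3 had 1.

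Markers of sympathetic nerve cells were among the neuron markers read in the same library. Th, the first enzyme of noradrenaline synthesis, had 70.3 CPM in Npr1+/- 1, 0.127 CPM in Npr1+/- 2 and 0 in the other 4 libraries. Dbh, a later enzyme of that path, had 132.3 CPM there and at most 0.57 CPM elsewhere. Chrna3, a nicotinic receptor subunit of autonomic ganglia, had 22.5 CPM there and 0 in the other 5. Sensory neuron markers reached a summed level of 19.95 CPM in Npr1+/- 1 against 4.67 to 6.26 CPM in the other 5, with 2 of 6 markers highest there (Trpv1 and Avil). Avil alone made up 17.5 CPM of that sum, and Tac1, Mrgprd and Prdm12 were at 0 in that library. The part of nerve cells in the channel genes of that library was not tested.

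The sodium channel alpha genes of chromosome 2 lie in 1 row, Scn3a, Scn2a, Scn1a, Scn9a and Scn7a, with gaps of 53173, 503334, 39243 and 38312 bases (GRCm38.p6). Scn9a and Scn1a, which are neighbours, were read mainly in Npr1+/- 1. Scn7a was highest and Scn2a lowest in that library, and Scn3a was higher in all 3 Npr1+/- libraries.

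**Figure D4:**
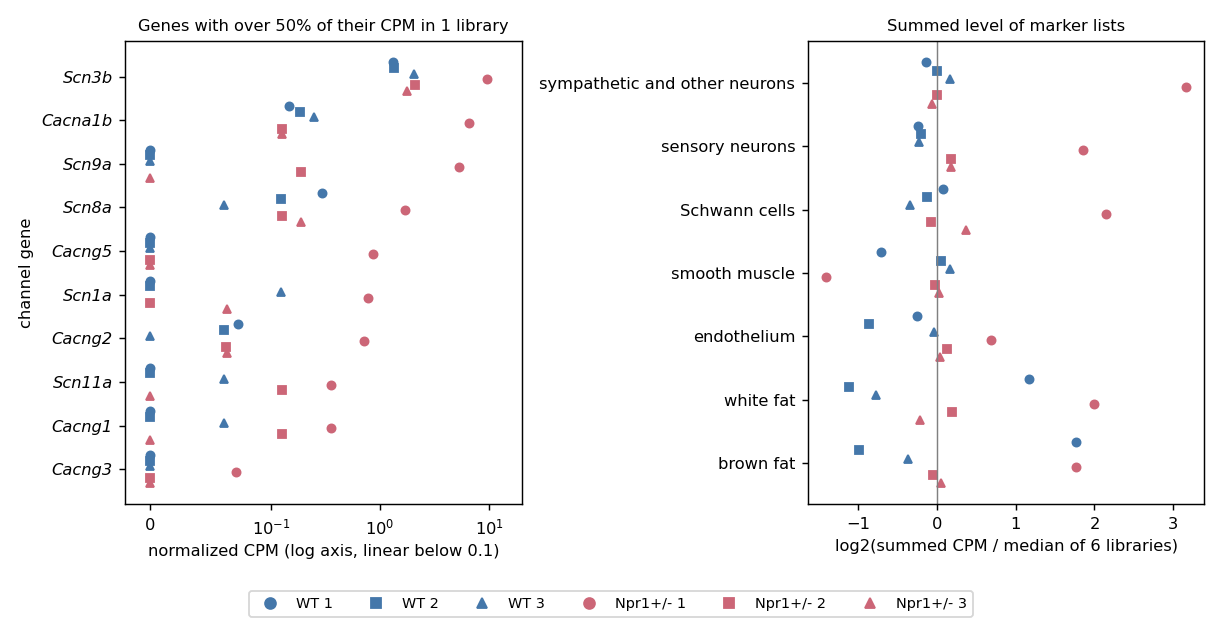
Left, normalized CPM (log axis, linear below 0.1) of the 10 channel genes with over 50% of their CPM in Npr1+/- 1, by library. Right, summed CPM of 7 marker lists by library, as log2 of the ratio to the median of the 6 libraries. The red circle, Npr1+/- 1, is highest for all 10 genes, which were chosen by their share in that library. It is highest for every list shown but smooth muscle, where it is lowest, and for brown fat it is nearly level with WT 1.

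Both libraries numbered 1 were below the other 4 in 6 of the 20 tested genes (Cacna1c, Cacna2d1, Cacnb1, Cacnb2, Cacnb3 and Cacng7), beside 24.1% of all tested genes. They were above the other 4 in 2 (Cacna1a and Scn7a), beside 23.9% of all tested genes. All 7 of 7 smooth muscle markers were below the other 4 in both libraries. White fat markers were summed at 2232 CPM in WT 1 and 3965 CPM in Npr1+/- 1 against 459.1 to 1133 CPM in the other 4, and brown fat markers at 2580 and 2587 CPM against 384.1 to 787.6 CPM. Red blood cell markers were summed at 4451 and 3758 CPM against 366.1 to 793.8 CPM. Endothelial markers were summed at 467.2 to 822.6 CPM in WT and 872.6 to 1358 CPM in Npr1+/- libraries. Of the 7 markers, Pecam1, Tie1 and Vwf did not overlap between genotypes, and Cdh5, Tek, Kdr and Emcn did. All 7 had a log2 fold change above 0, and 0 were called. The part of tissue makeup in the channel genes was not tested.

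Genes that work with these channels were read from 5 lists. Of 59 listed genes, 58 were in the table and 48 were tested. None was called by edgeR, with or without the block. At an unadjusted p under 0.05 there were 4 higher in Npr1+/-, beside 1.88% of all tested genes, and 0 lower, beside 1.08%. The median log2 fold change was -0.02. Atp2b2, a plasma membrane calcium pump, was at 0.30, 0.24 and 0.34 FPKM in WT and 0.76, 0.59 and 0.81 FPKM in Npr1+/- libraries. Its log2 fold change was 1.31 (SE 0.28, edgeR unadjusted p = 0.00249), and 1.26 without Npr1+/- 1. Every Npr1+/- library was above every WT library, as in 3.9% of all tested genes. The edgeR adjusted p was 0.999 for Atp2b2 and for Cabp1, Cachd1 and Catsper2 below.

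Cabp1, a calcium sensor that binds calcium channels, was at 2.94, 3.34 and 3.06 FPKM in WT and 4.01, 5.52 and 5.45 FPKM in Npr1+/- libraries, again without overlap. Cabp1 had a log2 fold change of 0.68 (SE 0.22, edgeR unadjusted p = 0.0186), and 0.77 without Npr1+/- 1. Cachd1, a relative of the alpha2delta subunits, had a log2 fold change of 0.53 (SE 0.22, edgeR unadjusted p = 0.0455), and 0.32 without Npr1+/- 1. Catsper2, of the calcium channel of sperm, had one of 1.02 (SE 0.38, edgeR unadjusted p = 0.032), and 0.86 without Npr1+/- 1. Neither of these genes overlapped between genotypes in normalized CPM. Cachd1 was at 8.639 to 10.87 CPM in WT and 12.09 to 18.17 CPM in Npr1+/- libraries. Catsper2 was at 1.112 to 2.553 CPM in WT and 2.988 to 4.276 CPM in Npr1+/- libraries. Among the other tested genes of these lists, Orai3, Gpd1l and Stac3 did not overlap either and were lower in Npr1+/-. Orai3 was at 45.66 to 51.83 CPM in WT and 38.41 to 44.8 CPM in Npr1+/- libraries. Their edgeR unadjusted p was 0.066 to 0.177, and 3.58% of all tested genes were lower without overlap. With the block, 4 genes of these lists were higher at an edgeR unadjusted p under 0.05, beside 7.36% of all tested genes, and 7 lower, beside 5.09%. The 7 lower genes were Fgf13, Fgf14 and Ank2, which bind sodium channels, the calcium release channel Ryr2, the sodium-calcium exchangers Slc8a1 and Slc8a2, and the sodium leak channel Nalcn. Their log2 fold changes with the block ran from -0.51 (Fgf13) to -0.34 (Slc8a1). Without Npr1+/- 1, and with no block, they ran from -0.33 (Ank2) to 0.0018 (Fgf14).

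By list, the sodium channel partners had a median log2 fold change of -0.01 over 9 tested genes and the calcium channel partners one of -0.04 over 14. For calcium release and store-operated entry it was 0.08 over 10 genes, for calcium removal -0.35 over 9 and for other cation channels of the superfamily 0.30 over 6. Without Npr1+/- 1 the 5 medians lay between -0.10 and 0.05.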

How the data were processed

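The 6 libraries were made from RNA of whole aortas. The authors filtered reads with SOAPnuke, aligned them with Bowtie2 and estimated expression with RSEM. The submitters' processing notes name mm10 and DESeq2 1.4.5. The deposited table holds estimated counts, not normalized, and FPKM (a unit read from the values), with the Npr1+/- columns named Knockdown. Its 4 columns of authors' group means were not used. Of 18191 NCBI gene identifiers, 18070 were paired with a symbol of the RefSeq table of GRCm38.p6. Gene positions come from that table. Of 40 RefSeq genes that meet the rule, 38 were in the table, and Scn10a and Cacng6 were not analysed here. Of the 38 genes, 2 are not reported here and enter no count of channel genes. In 21 of the other 36 genes some estimated counts were fractional, as RSEM gives them where reads are divided between genes.

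Counts were rounded and tested in R 4.3.3 with edgeR 4.0.16 (TMM scaling, minimum count of 10, quasi-likelihood test, Benjamini-Hochberg adjustment). The SE was the absolute log2 fold change divided by the square root of F. The scripts were tested on simulated data. Libraries of the same number deviated together from their group means (correlation over genes 0.64, 0.39 and 0.24 for numbers 1, 2 and 3). Unlike numbers did so too between WT 3 and Npr1+/- 2 (0.45) and WT 2 and Npr1+/- 3 (0.37), so only the libraries numbered 1 stood apart as a pair. Since each same-number correlation was above 0.1, the fit with the replicate number as a block is given as well. Apart from Cacng7, its values are printed for single genes only where its unadjusted p was under 0.05. The 3 deviations of a group sum to 0, so these correlations depend on each other. They cannot show that numbers 2 and 3 are matched between the genotypes. Alternatives were DESeq2 1.42.0 with and without the block, its size factors in edgeR, no filter on low counts, limma 3.58.1 on log2(FPKM + 0.1) and log2(FPKM + 1) (mean FPKM 0.1 or more), and leaving out each library or both numbered 1. Genes were named with per-library values at a mean FPKM of at least 0.5 or an unadjusted p under 0.05. Cacna1e, Cacna2d2, Scn4a and the genes read mainly in Npr1+/- 1 are also described, chosen after their values were seen, as are the promoters shown. Members and lists were chosen with earlier results of these data known. Intervals and floors of 3 counts cover counting error only.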

Additional observations from a re-analysis of the deposited data

How the results depend on the processing

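The count of called channel genes was 0 in all 14 alternatives, and the median log2 fold change stayed below 0 in each over the 20 channel genes tested by edgeR (19 of them in limma). Over the 36 channel genes that DESeq2 fitted, it was 0.13, and 0.15 with the replicate block. The count of called genes over the whole table was 0 with edgeR and limma on 6 libraries, 15 with DESeq2, 268 with DESeq2 and the replicate block, 1 without both libraries numbered 1 and 0 without each single library. The cause was not tested. In edgeR the replicate block gave 0 called genes, a median of -0.13 for the channel genes and a log2 fold change of -0.44 for Npr1, and it changed no call of a channel gene. At an unadjusted p under 0.05 it moved the count of channel genes from 1 to 8 and of all genes from 412 to 1735.

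Of the 17 named genes, 9 kept their direction in all alternatives (Cacna1c, Cacna1d, Cacna2d1, Cacna2d3, Cacnb2, Scn2a, Scn3a, Scn3b and Scn7a). Without both libraries numbered 1 the log2 fold change turned to -0.031 for Cacna1a, 0.031 for Cacna1g, 0.22 for Cacnb4 and -0.28 for Scn2b. Leaving out each library in turn, it ran from -0.14 to 0.38 for Cacna1a, -0.20 to 0.093 for Cacna1h, -0.081 to 0.31 for Cacnb1, -0.36 to 0.030 for Cacnb3, -0.25 to 0.088 for Cacnb4, -0.32 to 0.023 for Cacng7 and -0.11 to 0.56 for Scn2b. The cause was not tested. The 16 genes that were not tested had too few counts for a comparison of the genotypes at this depth.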

Other observations

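Lists of markers that are not set beside a channel gene in the comparisons gave these summed levels. Fibroblast markers were at 2772 to 4254 CPM in WT and 2259 to 3193 CPM in Npr1+/- libraries. Macrophage markers were at 127.5 to 311.0 CPM in WT and 156.2 to 226.6 CPM in Npr1+/- libraries, and 6 of 6 were higher in both libraries numbered 1 than in the other 4. Heart muscle markers were at 12.5 to 26.9 CPM in WT and 25.1 to 44.7 CPM in Npr1+/- libraries. Of these, Actc1 was at 1.112 to 3.355 CPM in WT and 9.744 to 28.65 CPM in Npr1+/- libraries. The log2 fold change was above 0 for 3 of 5 tested heart markers, but -0.36 for Tnnt2 and -0.31 for Tnni3. Their median was -0.03 without Npr1+/- 1. Lymphocyte markers were at 1.17 to 3.36 CPM in WT and 2.09 to 6.63 CPM in Npr1+/- libraries. Mesothelium markers were at 0.66 to 1.54 CPM in WT and 1.08 to 6.34 CPM in Npr1+/- libraries, with 4 of 4 highest in Npr1+/- 1.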
